A study of Homo sapiens with 15 samples.

Results

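The G2/M and mitosis genes are 43 genes that a dividing cell uses to enter mitosis, line up and separate its chromosomes and divide. They were chosen by symbol, and all 43 were found among the 28518 symbols of the count table and all passed the filter on low counts, which left 14971 genes. RNA sequencing gave their mRNA levels in HaCaT, a line of human skin keratinocytes that became immortal in culture, after CRISPR editing of CARD14. CARD14 is a keratinocyte scaffold protein that assembles BCL10 with MALT1, a paracaspase. The groups were R820W cells (both CARD14 alleles R820W) given mepazine, R820W cells given vehicle, WT cells (both alleles wild type) given mepazine, KO cells (labelled CARD14 knockout) given vehicle and WT cells given vehicle. Mepazine, a phenothiazine inhibitor of MALT1, was used at 10 µM and the vehicle was DMSO, both for 24 h, and each group held 3 libraries lettered a, b and c. The labels do not say how many edited clones stood for a genotype.

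Cells carry most of these transcripts at low levels in G1 and at high levels in G2 and mitosis. CDK1 with cyclin B starts mitosis, PLK1 and the Aurora kinases build and correct the spindle, and the spindle checkpoint holds CDC20 back until every kinetochore is attached. CDC20 then turns on the anaphase-promoting complex, which destroys cyclin B and securin. Many of their promoters share a CHR element, bound by the MuvB complex, and CCAAT boxes, bound by NF-Y. MuvB with the pocket proteins forms the DREAM repressor in resting cells, and MuvB with MYBL2 and FOXM1 activates the same promoters in G2. In keratinocytes, proliferation of this kind belongs to the basal layer and is lost on differentiation. In bulk RNA, fewer cells in G2 or mitosis and less of these transcripts per cell cannot be told apart.

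The promoters of 6 members are shown because they stand for the patterns described further on. Of these, 4 fell more with mepazine in R820W than in WT cells. CDC20 fell with mepazine in both genotypes, and CCNB2, like CCNB1 a B-type cyclin gene, did not fall in either. Sequences are from RefSeq (GRCh38.p14), from 250 bases before to 50 after the start of the gene, 5′ to 3′ on the strand of the gene. Capitals mark matches on either strand to CCAAT or to the CHR letters TTTGAA or TTCGAA, and a match that reads TTCAAA or ATTGG lies on the opposite strand.
MAD2L1, chr4:120066799-120067098, strand -: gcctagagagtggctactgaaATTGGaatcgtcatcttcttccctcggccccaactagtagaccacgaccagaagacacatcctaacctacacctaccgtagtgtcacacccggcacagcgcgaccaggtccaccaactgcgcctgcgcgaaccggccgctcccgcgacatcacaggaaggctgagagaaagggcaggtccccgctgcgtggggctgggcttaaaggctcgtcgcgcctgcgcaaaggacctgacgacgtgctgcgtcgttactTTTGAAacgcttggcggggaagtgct
CCNA2, chr4:121823834-121824133, strand -: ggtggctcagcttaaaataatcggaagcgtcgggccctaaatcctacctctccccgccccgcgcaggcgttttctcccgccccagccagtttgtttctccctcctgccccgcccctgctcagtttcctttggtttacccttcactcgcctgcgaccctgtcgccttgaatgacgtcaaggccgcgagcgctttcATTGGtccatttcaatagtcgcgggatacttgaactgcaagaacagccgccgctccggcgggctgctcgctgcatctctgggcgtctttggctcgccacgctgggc
PLK1, chr16:23678639-23678938, strand +: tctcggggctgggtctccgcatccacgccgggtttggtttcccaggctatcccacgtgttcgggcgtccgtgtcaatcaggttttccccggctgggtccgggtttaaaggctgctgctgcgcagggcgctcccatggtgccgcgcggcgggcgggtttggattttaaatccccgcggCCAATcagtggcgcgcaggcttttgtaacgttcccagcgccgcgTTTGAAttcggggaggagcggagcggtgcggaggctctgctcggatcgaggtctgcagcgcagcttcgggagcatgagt
CCNB1, chr5:69166900-69167199, strand +: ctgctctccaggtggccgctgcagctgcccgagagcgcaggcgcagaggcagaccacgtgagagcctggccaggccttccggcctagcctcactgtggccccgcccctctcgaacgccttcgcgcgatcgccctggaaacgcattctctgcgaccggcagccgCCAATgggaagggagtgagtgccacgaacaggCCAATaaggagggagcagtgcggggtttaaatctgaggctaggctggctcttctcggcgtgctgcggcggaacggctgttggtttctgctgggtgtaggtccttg
CDC20, chr1:43358731-43359030, strand +: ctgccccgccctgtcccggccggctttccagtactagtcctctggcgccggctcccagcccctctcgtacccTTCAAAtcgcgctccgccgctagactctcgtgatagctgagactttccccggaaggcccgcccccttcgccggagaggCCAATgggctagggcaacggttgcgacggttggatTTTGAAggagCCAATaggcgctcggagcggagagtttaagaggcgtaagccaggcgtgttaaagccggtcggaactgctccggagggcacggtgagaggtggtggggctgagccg
CCNB2, chr15:59104896-59105195, strand +: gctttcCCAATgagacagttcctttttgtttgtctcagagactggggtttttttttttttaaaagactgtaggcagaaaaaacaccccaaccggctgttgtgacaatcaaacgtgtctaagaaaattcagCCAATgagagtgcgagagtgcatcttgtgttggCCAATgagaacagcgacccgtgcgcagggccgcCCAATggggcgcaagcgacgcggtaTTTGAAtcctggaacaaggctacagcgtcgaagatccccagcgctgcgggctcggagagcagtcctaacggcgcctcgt
No promoter was matched for AURKA, BUB3, TTK, TPX2, BIRC5, UBE2C and FOXM1. A promoter was matched for the other 36 of the 43 members. Of these, 26 held the CHR letters, 28 held CCAAT and 22 held both. These are 72.2%, 77.8% and 61.1% of the 36, against 16.6%, 35.7% and 6.58% of all 27305 promoters of the same length. In 2 of the 36, MKI67 and CDCA8, a CHR match and a CCAAT match shared 1 base. The printed promoters of CCNA2 and CCNB1 held CCAAT and no CHR letters, while those of MAD2L1, PLK1, CDC20 and CCNB2 held both. Among the matched members, CHR letters were in 12 of the 15 that fell with mepazine in R820W cells and in 14 of the 21 that did not, and CCAAT was in 14 of the 15 and in 14 of the 21. AURKA, BUB3, TPX2, BIRC5 and UBE2C also fell but had no matched promoter and are not in this split. A match is a run of letters and not a measured binding site. Only the letters named above were searched. A promoter without a match, as with CCNA2 and CCNB1 for the CHR, is thus not shown to lack the element.

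The libraries held 20630099 to 26974363 counts, and each member had 374 to 26351 counts in every library, with CDC25C the lowest at 374 to 660. Levels are CPM, counts scaled to a common library size adjusted by TMM. A gene was called when its p from edgeR's quasi-likelihood test, adjusted by Benjamini-Hochberg over the 14971 genes, was under 0.05. A log2 fold change is given ± SE, and a mean ± SD over 3 libraries. R820W mepazine a differed from b and from c (chi-square per gene of 9.92 and 14.8, where sampling noise alone gives about 1) more than any pair within another group did (3.31 to 7.81), and b and c differed by 6.90. Results on these libraries are therefore also given with each left out. Keratinocyte markers were detected in every library (11 of 11). Their sums in CPM of all counts were 5211 to 5592 in R820W mepazine and 4808 to 5163 in R820W vehicle. They were 5319 to 5913 in WT mepazine, 5756 to 6523 in KO and 5895 to 6220 in WT vehicle. CARD14 had 24 to 46 counts per library and a mean of 1.61 CPM in R820W mepazine, 1.57 CPM in R820W vehicle, 1.47 CPM in WT mepazine, 1.78 CPM in KO and 1.52 CPM in WT vehicle. It was thus not lower in the libraries labelled KO, and counts over the whole gene do not show whether an edit is present.

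**Figure D1:**
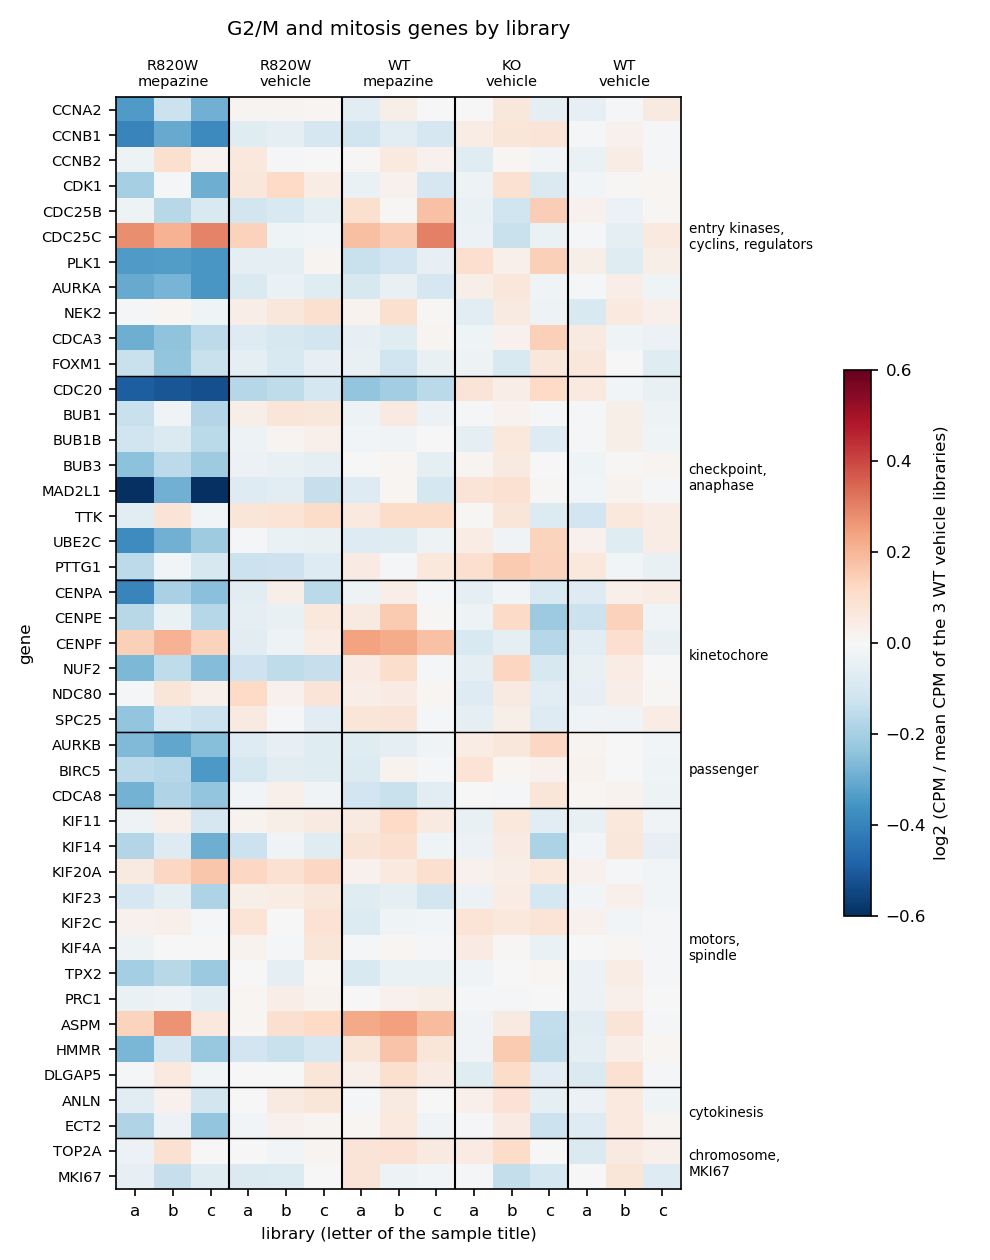
Each row is 1 of the 43 genes and each column 1 of the 15 libraries, with colour giving the log2 ratio of its CPM to the mean CPM of the 3 WT vehicle libraries. Blue cells, below WT vehicle, gather in the 3 R820W mepazine columns at CDC20, MAD2L1, CCNB1, PLK1 and AURKA, and red cells at CENPF and CDC25C in both mepazine groups.

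Summed over the 43 genes, the level was 9012, 9362 and 8937 CPM in R820W mepazine libraries a, b and c and 9592, 9655 and 9832 CPM in R820W vehicle. The sum was 9865, 9966 and 9834 CPM in WT mepazine, 9766, 9930 and 9598 CPM in KO and 9609, 10033 and 9673 CPM in WT vehicle. The R820W mepazine libraries were thus below all 12 others. As a share of all counts, without the TMM factor, the R820W mepazine sum was 0.923 to 0.975% and the R820W vehicle sum 0.958 to 0.982% of all counts, and these ranges overlap. The TMM factors were 1.03 to 1.07 in R820W mepazine and 0.966 to 1.01 in the other groups.

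Mepazine lowered many of the mitotic genes in R820W cells. Against R820W vehicle, 20 of the 43 fell and 2 rose, with a median log2 fold change of -0.11. The members that fell held cyclins A2 and B1 with CDK1, the Aurora kinases and PLK1. They also held most of the spindle checkpoint and all 3 chromosomal passenger genes among the 43. Falls were modest, from -0.43 in MAD2L1 to -0.13 in BUB1B, and the proliferation markers MKI67 and TOP2A did not pass the test. Of all genes tested, 24.8% fell and 22.1% rose in this comparison, against 46.5% and 4.65% of the members, and the median of all genes was 0.02.

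The values of 24 members in the 3 R820W mepazine libraries lay below all 3 R820W vehicle values and those of 2 lay above, where 27.3% of all genes lay below and 26.0% above. An unadjusted p under 0.05 was given to 24 of the 43 members and to 53.3% of all genes. Scaled by library size alone, 13 members fell and 3 rose, and the median was -0.04. That scaling, which was chosen after seeing the data, also changed the split of all called genes to 62.1% higher, against 47.1% with TMM. With R820W mepazine a, b or c left out, 19, 22 and 17 members fell, and none of the members given below with an adjusted p for this comparison lost its call.

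Among the genes of mitotic entry, 6 of 11 fell and 1 rose. CCNB1, cyclin B1, had 289.7, 309 and 292 CPM in R820W mepazine libraries a, b and c, against 362, 366 and 356 CPM in R820W vehicle, a log2 fold change of -0.28 ± 0.0380 (edgeR adjusted p = 8.78e-07). The groups did not overlap, and WT mepazine (351, 365 and 355 CPM), KO (393, 401 and 403 CPM) and WT vehicle (378, 388 and 378 CPM) all lay above the R820W mepazine values. Its kinase CDK1 had 148, 168 and 139 CPM in R820W mepazine, against 178, 185 and 175 CPM in R820W vehicle. CDK1 fell too, with library b far above a and c and close to the 165, 173 and 158 CPM of WT mepazine, the 166, 181 and 159.9 CPM of KO and the 168, 171 and 171 CPM of WT vehicle.

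CCNA2, cyclin A2, had 132, 153 and 136 CPM in R820W mepazine, against 169, 169 and 168 CPM in R820W vehicle, where the 3 libraries were almost equal, and it fell. It had 159, 171 and 167 CPM in WT mepazine, 167, 175 and 159.9 CPM in KO and 161, 166 and 173 CPM in WT vehicle, so that only R820W mepazine stood below the other 4 groups. CCNB2, the second B-type cyclin, averaged 171 ± 7.50 CPM in R820W mepazine and 170.2 ± 4.90 CPM in R820W vehicle and did not pass. The cyclin B genes CCNB1 and CCNB2 thus gave different calls in the same libraries. The 95% interval of the CCNB2 log2 fold change was -0.07 to 0.10.

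PLK1, the Polo kinase of mitotic entry and spindle assembly, had 157, 157 and 156 CPM in R820W mepazine, against 191, 191 and 201 CPM in R820W vehicle (log2 fold change -0.31 ± 0.0419, edgeR adjusted p = 8.43e-07). It had 181, 183 and 192 CPM in WT mepazine, 213, 203 and 219 CPM in KO and 204, 189 and 203 CPM in WT vehicle. The R820W mepazine libraries lay close to one another and below all 12 others. AURKA, the centrosomal Aurora kinase, had 187, 190.1 and 181 CPM in R820W mepazine, against 217, 224 and 219 CPM in R820W vehicle (-0.24 ± 0.0391, edgeR adjusted p = 1.26e-05). Its values of 216, 223 and 215 CPM in WT mepazine, 236, 241 and 227 CPM in KO and 228, 237 and 226 CPM in WT vehicle were likewise all higher.

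FOXM1, the transcription factor of G2 genes, had 273, 253 and 272 CPM in R820W mepazine, against 287, 281 and 288 CPM in R820W vehicle, without overlap and without passing the test. It had 289, 275 and 289 CPM in WT mepazine, 292, 280.0 and 313 CPM in KO and 313, 299 and 284 CPM in WT vehicle, ranges that overlap one another. CDCA3 fell, at 51 ± 2.42 CPM in R820W mepazine and 55.9 ± 0.599 CPM in R820W vehicle. The centrosomal kinase NEK2 (91.2 ± 1.25 against 96.2 ± 1.81 CPM) and the CDK1-activating phosphatase CDC25B (278 ± 13.2 against 279.9 ± 4.99 CPM) did not pass. CDC25C, a second CDK1-activating phosphatase, rose, at 23.9, 22.7 and 24.2 CPM in R820W mepazine, against 21.6, 19.3 and 19.4 CPM in R820W vehicle (0.23 ± 0.0642, edgeR adjusted p = 0.00451).

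In spindle checkpoint and anaphase control 6 of 8 members fell and none rose. CDC20, the activator of the anaphase-promoting complex that the checkpoint restrains, had 229.9, 227 and 224 CPM in R820W mepazine, against 288, 292 and 301 CPM in R820W vehicle (-0.37 ± 0.0398, edgeR adjusted p = 2.87e-08). MAD2L1, which encodes the checkpoint protein MAD2 that binds CDC20, had 44.1, 56.2 and 43.6 CPM in R820W mepazine, against 65.2, 65.5 and 62.6 CPM in R820W vehicle (-0.43 ± 0.0665, edgeR adjusted p = 1.17e-05). For MAD2L1 the groups did not overlap, but library b stood well above a and c. UBE2C, the ubiquitin-conjugating enzyme of the complex, had 125, 133 and 140.1 CPM in R820W mepazine, against 161, 158 and 157 CPM in R820W vehicle (-0.26 ± 0.0468, edgeR adjusted p = 4.86e-05). BUB1 averaged 136 ± 7.71 against 153 ± 1.98 CPM, BUB1B 167 ± 4.11 against 182 ± 4.26 CPM and BUB3 188 ± 5.87 against 211 ± 1.07 CPM in R820W mepazine against R820W vehicle, and these checkpoint genes also fell. The checkpoint kinase TTK (119 ± 5.90 against 126 ± 1.86 CPM) and securin, PTTG1 (46.3 ± 2.25 against 45.6 ± 0.882 CPM), did not pass.

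The chromosomal passenger complex places Aurora B at centromeres, and its 3 genes among the members fell together. AURKB, its kinase, averaged 74.4 ± 1.51 CPM in R820W mepazine and 86.3 ± 0.954 CPM in R820W vehicle. CDCA8, borealin, averaged 85.5 ± 3.05 and 100.2 ± 1.97 CPM and BIRC5, survivin, 110.3 ± 7.87 and 122 ± 1.91 CPM in the same order of groups. At the kinetochore 2 of 6 fell, CENPA, the centromeric histone H3 (36.1 ± 2.53 CPM in R820W mepazine, 41.9 ± 2.92 CPM in R820W vehicle), and SPC25, a subunit of the NDC80 complex (42.9 ± 2.04 and 47.5 ± 1.99 CPM). NDC80 and NUF2, the other NDC80 complex genes among the members, and the motor CENPE did not pass. CENPF, a large kinetochore and nuclear matrix protein, rose, with 578, 604 and 576 CPM in R820W mepazine, against 499, 513 and 540.2 CPM in R820W vehicle (0.18 ± 0.0456, edgeR adjusted p = 0.00188).

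Among motors and spindle assembly factors 2 of 11 fell and none rose. TPX2, which activates Aurora A on the spindle, averaged 532 ± 10.8 CPM in R820W mepazine and 605 ± 15.1 CPM in R820W vehicle, and KIF23, the kinesin of centralspindlin, 243 ± 11.5 and 271 ± 3.11 CPM. The kinesins KIF11, KIF14, KIF20A, KIF2C and KIF4A, the midzone crosslinker PRC1, and ASPM, HMMR and DLGAP5 of the spindle did not pass, with log2 fold changes of -0.11 to 0.08. In cytokinesis ECT2, the activator of RhoA at the cleavage site, fell (255 ± 18.8 CPM in R820W mepazine, 285 ± 4.56 CPM in R820W vehicle) and the ring scaffold ANLN did not pass (617 ± 29.4 and 658 ± 17.1 CPM).

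TOP2A, the topoisomerase that untangles mitotic chromosomes, had 725, 791 and 743 CPM in R820W mepazine, 743, 733 and 750.1 CPM in R820W vehicle, 784, 788 and 771 CPM in WT mepazine, 768, 800.3 and 739.8 CPM in KO and 699.9, 769 and 757 CPM in WT vehicle. MKI67, the Ki-67 proliferation antigen, had 889.8, 839 and 877 CPM in R820W mepazine, 867, 871 and 922 CPM in R820W vehicle, 972, 902 and 913 CPM in WT mepazine, 919, 834 and 858 CPM in KO and 923, 969.6 and 873 CPM in WT vehicle. The R820W mepazine values of both genes lay within the range of the other 12 libraries. The 95% interval of the log2 fold change of R820W mepazine against R820W vehicle was -0.07 to 0.11 for TOP2A and -0.12 to 0.07 for MKI67, which leaves out falls as large as those of CCNB1 or CDC20.

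**Figure D2:**
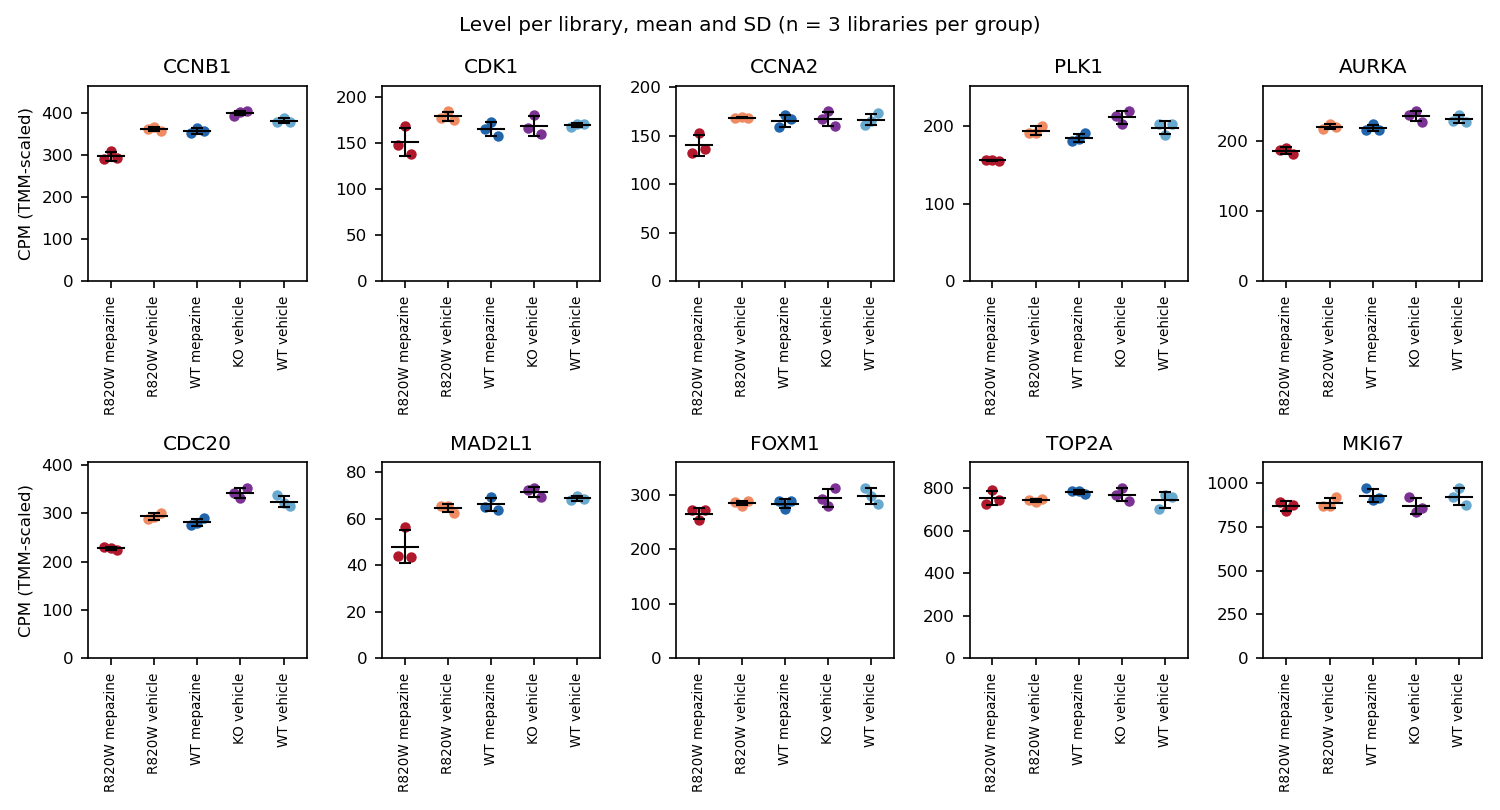
Level in CPM of 10 members in each library (points), with the mean and SD of the 3 libraries of a group (lines), on axes that start at 0. CCNB1, PLK1, AURKA, CDC20 and MAD2L1 are lowest in the R820W mepazine libraries, while TOP2A and MKI67 overlap across the groups.

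Whether mepazine acted differently in the 2 genotypes was tested as the difference of the responses, R820W minus WT. It was below 0 for 41 of the 43 members, with a median of -0.13 against -0.03 over all genes, and 4 passed, all with a larger fall in R820W cells. They were MAD2L1 (-0.38 ± 0.0930, edgeR adjusted p = 0.026), CCNA2 (-0.26 ± 0.0686, edgeR adjusted p = 0.0332), PLK1 (-0.21 ± 0.0591, edgeR adjusted p = 0.041) and CCNB1 (-0.19 ± 0.0537, edgeR adjusted p = 0.045). These 4 are 9.30% of the members, where 3.07% of all genes passed in that direction and 0.788% in the other. An unadjusted p under 0.05 was given to 19 of the 43 members and to 19.4% of all genes. MAD2L1 responded by -0.43 in R820W and -0.06 in WT cells, and CCNA2 by -0.27 and -0.01. For PLK1 the responses were -0.31 in R820W and -0.10 in WT cells, and for CCNB1 -0.28 and -0.09. CDC20, which passed with mepazine in both genotypes, did not pass here (-0.17 ± 0.0561), nor did the remaining 38 members.

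The 4 calls of the interaction depended on single libraries. With 1 of the 12 libraries left out at a time, CCNA2 lost its call in 9 fits, CCNB1 in 11, PLK1 in 10 and MAD2L1 in 8, with differences of -0.32 to -0.21, -0.22 to -0.17, -0.23 to -0.18 and -0.50 to -0.31. Without R820W mepazine b 11 members passed, and none passed without R820W vehicle a or b, R820W mepazine a or c, or WT mepazine b. Leaving out any of the other 6 libraries left 1 member. Library size alone left 1 member called, and of all called genes 35.4% were then higher, against 20.5% with TMM. With the letter as a replicate block 12 members passed, but the labels do not say what the letter marks.

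**Figure D3:**
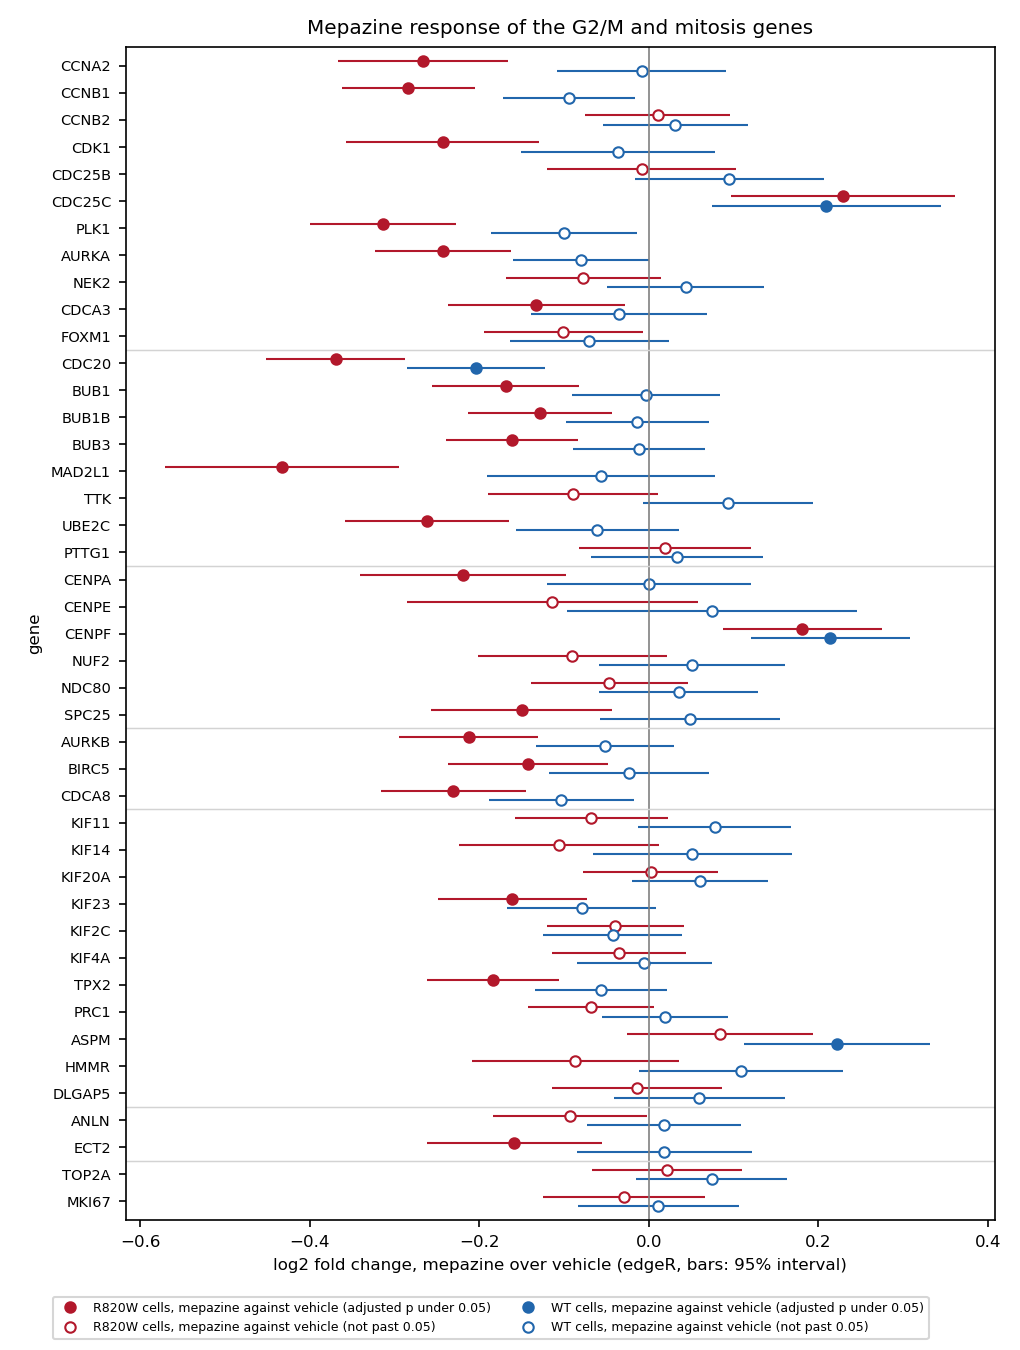
Log2 fold change of mepazine over vehicle for each of the 43 genes in R820W cells (red) and WT cells (blue), with 95% intervals from edgeR, filled points having an adjusted p under 0.05. Of the red points 36 lie left of 0, and for CCNA2, CCNB1, PLK1 and MAD2L1 the difference between red and blue passed the test.

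With both genotypes under mepazine, R820W cells had less of most members than WT cells: 24 of 43 were lower (55.8%) and none higher in edgeR, where 25.4% of all genes were lower and 19.4% higher. The median was -0.13. This comparison uses the same R820W mepazine libraries as the one against R820W vehicle, so the comparisons are not independent. MAD2L1 (-0.47 ± 0.0664), CDC20 (-0.31 ± 0.0398), CCNB1 (-0.27 ± 0.0380), PLK1 (-0.24 ± 0.0420), AURKA (-0.23 ± 0.0391) and AURKB (-0.23 ± 0.0398) led by adjusted p, from 5.56e-07 to 4.17e-05 by edgeR with Benjamini-Hochberg adjustment. By role, 6 of 11 entry genes, 7 of 8 checkpoint and anaphase genes, 3 of 6 kinetochore genes, 3 of 3 passenger genes, 4 of 11 motor and spindle genes and 1 of 2 cytokinesis genes were lower. Members that were not lower against R820W vehicle but were lower here had a mean in WT mepazine above that in WT vehicle, as in HMMR, a spindle microtubule protein, at 85.3 ± 5.34 CPM in R820W mepazine, 106 ± 4.24 CPM in WT mepazine and 98.0 ± 3.22 CPM in WT vehicle.

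In that comparison 28 of the 43 members and 51.4% of all genes had an unadjusted p under 0.05, and DESeq2 also called none higher. In all 3 libraries 27 members lay below WT mepazine and 1 above, where 28.6% and 23.2% of all genes did. Scaled by library size alone, 16 members were lower and 2 higher, and 57.7% of all called genes were higher, against 43.3% with TMM. With R820W mepazine a, b or c left out, 19, 27 and 19 members were lower.

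In WT cells mepazine moved few of the mitotic genes. Against WT vehicle 3 members rose and 1 fell, which is 6.98% and 2.33% of the 43, where 12.4% of all genes rose and 11.6% fell. CDC20 fell, with 275, 280.0 and 289.5 CPM in WT mepazine libraries a, b and c, against 337, 321 and 314 CPM in WT vehicle (-0.20 ± 0.0396, edgeR adjusted p = 4.04e-04). CENPF rose, with 619.9, 611 and 591 CPM in WT mepazine, against 501, 561 and 508 CPM in WT vehicle (0.21 ± 0.0457, edgeR adjusted p = 0.00101). ASPM, a spindle pole protein, rose to 394, 398 and 383 CPM in WT mepazine, against 320.1, 355 and 333 CPM in WT vehicle (0.22 ± 0.0532, edgeR adjusted p = 0.00326). In all 3 genes the groups did not overlap. Over the 43, 6 lay above WT vehicle in all 3 libraries and 7 below, where 21.1% and 19.1% of all genes did, and 8 members and 35.1% of all genes had an unadjusted p under 0.05. CDC25C rose to 22.2, 21.7 and 24.2 CPM in WT mepazine, against 19.6, 18.9 and 20.5 CPM in WT vehicle (0.21 ± 0.0655, edgeR adjusted p = 0.0205), but lost its call without WT vehicle a or b or WT mepazine a or c (0.16 to 0.24), and in DESeq2, where 2 members rose. Scaled by library size alone 5 members rose, and 69.3% of all called genes were higher, against 51.7% with TMM. The count of falls was 4 in a fit of only these groups and 3 in DESeq2, and 2 without WT vehicle b.

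CENPF and ASPM are long transcripts (10307 and 10887 bases, the longest protein-coding transcript in GENCODE v29). Across the 43 members the log2 fold change and transcript length had a Spearman rho of 0.34 in WT mepazine and 0.32 in R820W mepazine, each against its vehicle, -0.35 in KO and 0.19 in R820W vehicle, each against WT vehicle. Over the 12079 tested genes with a length, rho was 0.19, 0.12, -0.18 and 0.10 in the same comparisons. These are correlations across genes of the same libraries, which are not independent, and the part of length in the calls was not tested.

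R820W cells under vehicle differed little from WT cells in these genes. Against WT vehicle 1 member rose and 1 fell, each 2.33% of the 43, where 10.6% of all genes rose and 8.61% fell, and 4 members had an unadjusted p under 0.05, against 30.2% of all genes. In all 3 libraries 4 members lay above WT vehicle and 12 below, where 18.1% of all genes lay above and 18.1% below. KIF20A, the kinesin that carries the passenger complex to the midzone, had 201, 196 and 201 CPM in R820W vehicle, against 187, 183 and 182 CPM in WT vehicle (0.11 ± 0.0389, edgeR adjusted p = 0.0384). CDC20 had 288, 292 and 301 CPM in R820W vehicle, against 337, 321 and 314 CPM in WT vehicle (-0.14 ± 0.0395, edgeR adjusted p = 0.0104). Neither gene overlapped between the groups. NUF2, next by p, did not pass (-0.14 ± 0.0540, edgeR adjusted p = 0.0781).

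The call of KIF20A was lost with any of the 6 libraries left out (0.11 to 0.13), and that of CDC20 without WT vehicle a or R820W vehicle a (-0.16 to -0.11). Over all members the log2 fold changes of R820W against WT vehicle ran from -0.14 to 0.11, with 95% intervals that together span -0.25 to 0.19. Only these 2 groups in the fit gave 3 falls. Scaled by library size alone CDC20 was not called, and 69.6% of all called genes were higher, against 55.2% with TMM.

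No member passed in the cells labelled KO: edgeR, DESeq2 and limma-voom each called 0 of 43 in KO against WT vehicle, and 3 had an unadjusted p under 0.05 in edgeR, as did 7.62% of all genes. Few genes of any kind passed here, 0.287% of all genes higher and 0.0868% lower. The members with the smallest p were PTTG1, securin (0.13 ± 0.0489, edgeR adjusted p = 0.494), CENPF (-0.10 ± 0.0458, edgeR adjusted p = 0.597) and PLK1 (0.09 ± 0.0416, edgeR adjusted p = 0.6). PTTG1 had 52.8, 54.9 and 54.2 CPM in KO, against 51.4, 48.6 and 47.7 CPM in WT vehicle, without overlap. In all, 5 members lay above WT vehicle in all 3 KO libraries and none below, where 7.34% of all genes lay above and 5.23% below. The 95% intervals of the 43 log2 fold changes together span -0.21 to 0.23, so changes of the size seen for CDC20 or MAD2L1 in R820W cells under mepazine lie outside them.

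**Figure D4:**
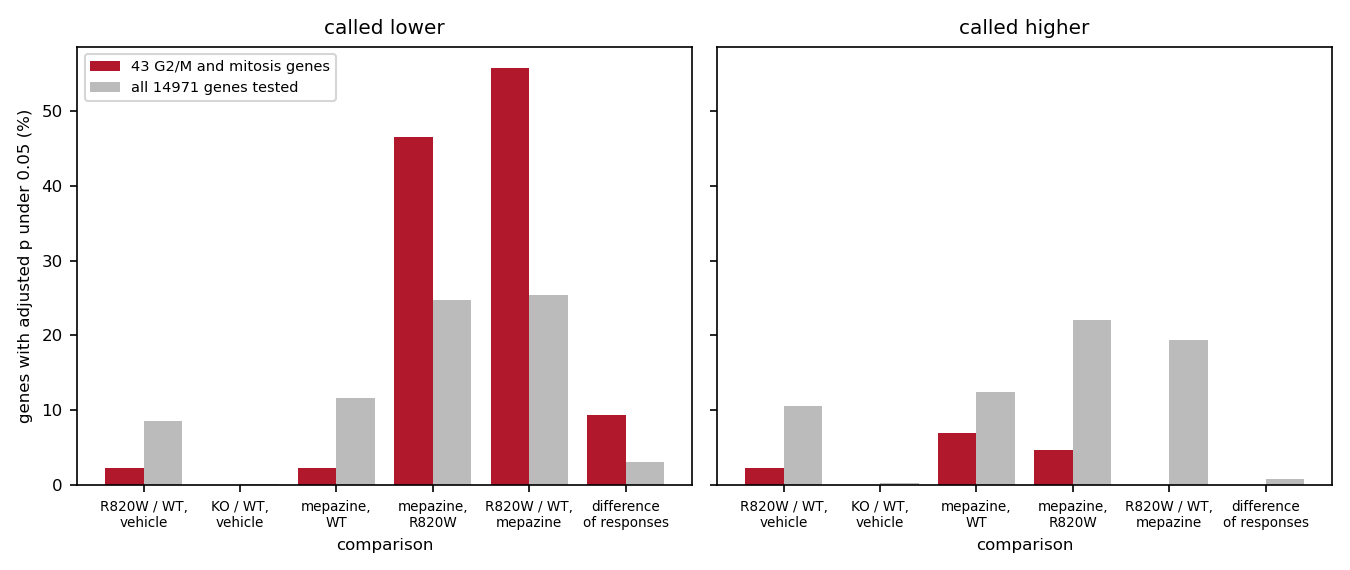
Percent of genes called lower (left) and higher (right) by edgeR at an adjusted p under 0.05 in each comparison, for the 43 members (red) and all 14971 genes tested (grey). Among genes called lower the red bar stands above the grey for R820W mepazine against R820W vehicle (46.5%), R820W against WT under mepazine (55.8%) and the difference of the responses (9.30%), and it stands below the grey or at 0 among genes called higher in every comparison.

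CDC20 was called in 4 of the 6 comparisons, more than any other member, and is singled out here after its values were seen. It averaged 227 ± 2.71 CPM in R820W mepazine, 293 ± 6.53 CPM in R820W vehicle, 281 ± 7.52 CPM in WT mepazine, 342 ± 9.88 CPM in KO and 324 ± 11.8 CPM in WT vehicle. R820W mepazine stood apart below all the others, R820W vehicle and WT mepazine overlapped, and so did KO and WT vehicle. Per length, dividing by the longest transcript, the highest members in WT vehicle were CDC20, UBE2C, CCNB1 and TPX2, at 182, 177, 176 and 169 CPM per kilobase, and the lowest were CENPE, MAD2L1 and CDC25C, at 16.8, 12.6 and 9.23 CPM per kilobase. In R820W mepazine CDC20 stood at 128 CPM per kilobase, rank 6 of the 43, and TPX2, UBE2C and CCNB1 led at 148, 145 and 137 CPM per kilobase. The level of MAD2L1 per length rests on a longest transcript of 5468 bases and would be higher for a shorter one.

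Replicates of most of these genes lay close together. The median coefficient of variation over the 43 members was 4.53% in R820W mepazine, 1.93% in R820W vehicle, 2.60% in WT mepazine, 4.16% in KO and 3.28% in WT vehicle. In R820W mepazine the coefficient was highest for MAD2L1, at 14.9%, with 10.0% for CDK1 and 7.79% for CCNA2. Reads of KIF4A and PTTG1 could be shared with near-identical copies. KIF4B had 0 to 7 counts, PTTG2 0 and PTTG3P 0 to 1 in every library. How shared reads were counted is not given, so these counts do not show whether KIF4A or PTTG1 lost reads.

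Genes of the same machinery outside the 43 were counted by list. Of 51 further G2/M and mitosis genes, 19 fell and 1 rose with mepazine in R820W cells, with a median log2 fold change of -0.08, where 24.8% of all genes tested fell and 22.1% rose. PKMYT1, the inhibitory kinase of CDK1, averaged 64.5 ± 4.44 CPM in R820W mepazine and 82.6 ± 2.92 CPM in R820W vehicle (-0.36, edgeR adjusted p = 3.54e-06), and CDKN3, a phosphatase of CDKs, 72.0 ± 6.82 and 90.3 ± 2.39 CPM (-0.33, edgeR adjusted p = 1.17e-05). In the interaction 2 passed, FAM83D (-0.26, edgeR adjusted p = 0.0138) and CDKN3 (-0.29, edgeR adjusted p = 0.0279), and CDKN3 lost its call in 7 of 12 fits with a library left out and FAM83D in 1, without R820W vehicle b. Of all genes 3.07% passed in that direction. In WT cells 7 rose and 1 fell with mepazine, where 12.4% of all genes rose and 11.6% fell, and in R820W against WT vehicle 3 rose and 1 fell, where 10.6% and 8.61% did, and in KO none passed (1 at an unadjusted p under 0.05 in edgeR).

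Of 17 genes of the anaphase-promoting complex and its regulators, 10 fell and 2 rose with mepazine in R820W cells (median -0.17). Of all genes, 24.8% fell and 22.1% rose. The falls included FBXO5 (-0.28), which encodes an inhibitor of the complex. UBE2S, which extends its ubiquitin chains, averaged 91.3 ± 4.77 CPM in R820W mepazine and 119 ± 1.52 CPM in R820W vehicle (-0.38, edgeR adjusted p = 3.69e-07), and ANAPC1, its largest subunit, 161 ± 9.58 and 192 ± 8.41 CPM (-0.26, edgeR adjusted p = 7.38e-05). UBE2S was also lower in WT mepazine (-0.16) and in R820W vehicle (-0.22), each against WT vehicle, and the WT mepazine call was lost without WT vehicle a or c or WT mepazine a. Of 12 MuvB, DREAM and pocket protein genes 5 fell and 2 rose in R820W mepazine, beside the same shares of all genes. RBL2, the pocket protein p130, rose to 80.0 ± 2.99 CPM in R820W mepazine, against 56.5 ± 1.56 CPM in R820W vehicle (0.50, edgeR adjusted p = 4.87e-09). Its partner E2F4 fell to 73.6 ± 0.954 CPM in R820W mepazine, against 96.3 ± 2.50 CPM in R820W vehicle (-0.39, edgeR adjusted p = 8.01e-08). RBL2 and E2F4 also moved that way with mepazine in WT cells (0.33 and -0.18).

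Among G1 cyclins, their kinases and CDK inhibitors, 4 of 14 tested rose and 5 fell in R820W mepazine against R820W vehicle, where 22.1% of all genes rose and 24.8% fell. CDKN2B, the inhibitor p15 of CDK4 and CDK6, averaged 68.6 ± 5.79 CPM in R820W mepazine, 22.8 ± 3.23 CPM in R820W vehicle, 20.4 ± 0.683 CPM in WT mepazine, 8.97 ± 0.598 CPM in KO and 8.92 ± 1.13 CPM in WT vehicle. It rose with mepazine in R820W cells (1.58, edgeR adjusted p = 1.60e-12) and in WT cells (1.20, edgeR adjusted p = 1.51e-08), and was higher in R820W than in WT vehicle (1.36, edgeR adjusted p = 6.87e-10). Of 22 DNA replication and G1/S genes 16 fell in R820W mepazine and none rose, beside the same shares of all genes, with a median of -0.19. RRM2, a subunit of ribonucleotide reductase, averaged 245 ± 16.0 CPM in R820W mepazine and 336 ± 5.59 CPM in R820W vehicle (-0.46, edgeR adjusted p = 3.19e-09), and MCM10, a replication initiation factor, 59.7 ± 1.02 and 76.9 ± 1.34 CPM (-0.37, edgeR adjusted p = 8.61e-08). In WT cells mepazine lowered 5 of the 22, where 11.6% of all genes fell. In the interaction 3 of the 22 were lower and none higher, where 3.07% and 0.788% of all genes were. They were RRM2 (-0.26), MCM10 (-0.24) and GINS1 (-0.27). Their calls were lost in 4, 7 and 7 of 12 fits with a library left out. The interaction also called 1 gene of the anaphase-promoting complex list, the inhibitor gene FBXO5, and 1 gene of the MuvB list, TFDP1. Both were lower, and none of the G1 list was called. FBXO5 lost its call in 9 of 12 fits with a library left out.

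Other measures moved with R820W mepazine beside these genes, and their part in the result was not tested. MYC averaged 98.8 CPM in R820W mepazine, 159 CPM in R820W vehicle, 155 CPM in WT mepazine, 195 CPM in KO and 197 CPM in WT vehicle. Fibroblast markers summed to 24.3 to 34.2 CPM of all counts in R820W mepazine, 5.35 to 11.2 in R820W vehicle, 3.53 to 5.20 in WT mepazine, 2.36 to 2.85 in KO and 2.42 to 2.59 in WT vehicle, with 3 of 7 detected in every library (COL1A1, DCN and LUM). COL1A2, COL3A1, PDGFRB and THY1 had at most 3, 2, 2 and 1 counts in any library. Of 4 endothelial markers CDH5 made up nearly all of the sum, 23.2 to 37.0 CPM in R820W mepazine, 7.73 to 10.5 CPM in R820W vehicle, 10.2 to 13.3 CPM in WT mepazine, 4.63 to 5.31 CPM in KO and 4.28 to 6.81 CPM in WT vehicle, while KDR had at most 1 count and 2 to 3 of the 4 were detected. Melanocyte markers (2 of 6 detected) summed to at most 2.78 CPM, with TYR and DCT at 0 counts, and leukocyte markers (1 to 2 of 5 detected) to at most 2.13 CPM.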

How the data were processed

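RNA from 15 HaCaT libraries was made into directional libraries and sequenced, per the labels' protocols. Raw counts of reads for each gene symbol were deposited by the authors. FastQC, DESeq2, MACS2 and hg19 are named, per the submitters' processing notes, without roles or versions, and which aligner, counter, annotation or strand setting was used is not given in the sources used here. Without a stated strand setting, reads of antisense partners may be counted with a gene. Every column was mapped to a sample by its name and the group by the labels.

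Genes were kept by filterByExpr with a minimum count of 10 and scaled by TMM. All 15 libraries were fitted together with edgeR's robust quasi-likelihood model (edgeR 4.0.16, R 4.3.3), without covariates, and two-sided tests were adjusted by Benjamini-Hochberg over all genes tested. Alternatives were DESeq2 1.42.0, its size factors in edgeR, limma-voom (limma 3.58.1), no filter, at least 1 CPM in 3 libraries, only the groups compared, the library letter as a replicate block and each library left out. Library size alone was added after seeing the data. A marker was detected with over 3 counts. The 95% intervals of fold changes come from the edgeR fit and include the spread between libraries. Nothing in the labels says that the libraries of a group came from separate cultures, and the series text speaks of independent experiments without tying them to letters. The p-values thus reflect the spread among these libraries, and that spread may be technical.

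The 43 members and the lists (further G2/M and mitosis genes, anaphase-promoting complex, MuvB and DREAM, G1 cyclins and CDK inhibitors, DNA replication, and markers of keratinocytes, fibroblasts, melanocytes, leukocytes and endothelium) were chosen with earlier results of these data known. Fold changes with adjusted p are given for up to 6 members called in each direction by smallest adjusted p, or the 3 with the smallest p where fewer than 3 were called, and for up to 3 called genes of each further list. Lengths are of the longest protein-coding transcript in GENCODE v29, and no coordinates of the counts' build are printed.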

Additional observations from a re-analysis of the deposited data

Results flagged for a closer look

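The response to mepazine differed between R820W and WT cells by the interaction term of the edgeR fit for 4 of the 43 genes. The difference, R820W response minus WT response on the log2 scale, was -0.38 for MAD2L1, -0.26 for CCNA2, -0.21 for PLK1 and -0.19 for CCNB1. All 4 fell more in R820W cells, and 3.07% of all genes tested passed in that direction. With a library left out, each lost its call in 8 to 11 of 12 fits and kept its direction in all 12. No group of 4 or more libraries was present, so single libraries were not tested as outliers.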

How the results depend on the processing

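The falls with mepazine in R820W cells (20 of 43) lay within 1.5 times under all alternatives except library size alone, which gave 13. The count lower against WT mepazine (24 of 43) lay within 1.5 times under all alternatives. There library size alone gave 16 members lower and 2 higher. KO against WT vehicle gave no call under any alternative. The small counts moved more, and the cause was not tested. In R820W against WT vehicle the count of members lower was 0 with library size alone, 3 with only the groups compared and 0 to 1 with a library left out, and the count higher was 0 with DESeq2 size factors in edgeR, without a filter and with any library left out. In WT mepazine against WT vehicle members lower were 3 with DESeq2, 3 with its size factors in edgeR, 4 with only the groups compared and 1 to 2 with a library left out, and members higher were 5 with library size alone. In the interaction members lower were 2 with DESeq2 size factors in edgeR, 1 with library size alone and 0 to 11 with a library left out.

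With the letter as a replicate block, members lower were 2 in R820W against WT vehicle, 4 in WT mepazine against WT vehicle, 23 in R820W mepazine against R820W vehicle, 27 against WT mepazine and 12 in the interaction. The letters were not taken as pairs: of 30 same-letter pairs of libraries from different groups, 5 had correlated deviations over 0.1 (median 0.0513), against 3 of 60 pairs with different letters (median -0.0251). Over the 43 members alone, 19 of the 30 same-letter pairs were over 0.1 (median 0.158), against 17 of the 60 others (median -0.0880), a hint of pairing from the data and not from the design.

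CCNA2 in WT mepazine against WT vehicle (-0.01, not called) changed sign with library size alone (0.0338) and lay between -0.0329 and 0.0201 with a library left out, above 0 without WT mepazine a or WT vehicle c. Precision is limited by 3 libraries per group, the spread of R820W mepazine, the unknown number of clones and, for the low CDC25C, the number of reads.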
